A study of Rattus norvegicus with 15 samples.

Results

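Secreted matrix metalloproteinases and an inhibitor of them, *Mmp2*, *Mmp9*, *Mmp3*, *Mmp13* and *Timp1*, were followed across all 5 culture groups of a study of aspirin in rat bone marrow mesenchymal stem cells. They were chosen by Ensembl identifier, ENSRNOG00000016695 (*Mmp2*), ENSRNOG00000017539 (*Mmp9*), ENSRNOG00000032626 (*Mmp3*), ENSRNOG00000008478 (*Mmp13*) and ENSRNOG00000010208 (*Timp1*), and all 5 were found among the 34480 rows of the count table. The identifiers carry the symbols of that choice, since neither the table nor the reference pairs identifiers with symbols. The choice names no measured value, but it was made with earlier results of these libraries known, among them the response of *Mmp9* to aspirin in the 2 media. The aspirin values of *Mmp9* are therefore given as a description without a test.

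The cells were cultured marrow stromal cells of Sprague-Dawley rats at passage 3-6, grown to full confluence or beyond, with 3 libraries in each group. Adi_ASA cells were kept in adipogenic differentiation medium with aspirin (acetylsalicylic acid, a cyclooxygenase inhibitor, written ASA in the labels), and Adi cells in that medium without it. Ost_ASA cells were kept in osteogenic differentiation medium with aspirin, and Ost cells in that medium without it. Control cells were untreated. The sources used here do not give the dose of aspirin, the time in culture or the number of animals, so a difference of a medium from Control cannot be told apart from one of time in culture. Nothing in the labels says that the libraries of a group came from separate animals or cultures, and the p-values below rest on the spread between libraries, part or all of which may be technical.

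Matrix metalloproteinases are zinc-dependent proteases that cut the proteins of the extracellular matrix, and most are secreted as inactive proenzymes that are activated outside the cell. Mmp2 (gelatinase A) and Mmp9 (gelatinase B) cut denatured collagen and basement membrane collagen. Mmp3 (stromelysin-1) has a broad range of matrix substrates and activates other proenzymes, and Mmp13 (collagenase-3) is a main collagenase of interstitial collagen in rodents. Timp1 binds the active site of these enzymes and blocks them. In bone, Mmp9 is abundant in osteoclasts and Mmp13 is made by cells of the osteoblast lineage and by hypertrophic chondrocytes.

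The promoters of the *Mmp3*, *Mmp13* and *Timp1* genes are shown because these 3 of the 5 genes had a promoter entry, and their transcripts were all lower in both media than in Control. The RefSeq promoter table of the GRCr8 assembly gives them (*Mmp2* and *Mmp9* were not among its entries) as windows from 250 bases before to 50 bases after the start of the gene. The windows are chr8:12925031-12925330 on the plus strand for *Mmp3*, chr8:12782579-12782878 on the plus strand for *Mmp13* and chrX:3771073-3771372 on the minus strand for *Timp1*. Each is written 5′ to 3′ along the gene. Capitals mark the binding motif of AP-1 (the Fos and Jun transcription factors), which reads TGACTCA or, on the opposite strand, TGAGTCA, a variant spelled TGAGTAA that differs by a single letter, and TATAAA, the letters of the core promoter element known as the TATA box.
Mmp3: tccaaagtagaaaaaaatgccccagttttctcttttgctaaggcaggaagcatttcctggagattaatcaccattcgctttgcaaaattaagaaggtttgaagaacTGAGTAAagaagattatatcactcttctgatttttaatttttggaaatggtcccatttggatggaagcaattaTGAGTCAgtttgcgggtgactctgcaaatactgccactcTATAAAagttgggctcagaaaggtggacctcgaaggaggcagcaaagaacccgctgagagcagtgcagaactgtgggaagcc
Mmp13: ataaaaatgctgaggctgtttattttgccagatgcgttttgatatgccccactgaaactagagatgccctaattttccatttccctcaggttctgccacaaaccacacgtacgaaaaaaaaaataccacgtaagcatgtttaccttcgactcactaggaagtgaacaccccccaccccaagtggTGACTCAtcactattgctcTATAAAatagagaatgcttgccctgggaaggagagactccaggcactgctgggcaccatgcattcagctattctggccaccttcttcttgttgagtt
Timp1: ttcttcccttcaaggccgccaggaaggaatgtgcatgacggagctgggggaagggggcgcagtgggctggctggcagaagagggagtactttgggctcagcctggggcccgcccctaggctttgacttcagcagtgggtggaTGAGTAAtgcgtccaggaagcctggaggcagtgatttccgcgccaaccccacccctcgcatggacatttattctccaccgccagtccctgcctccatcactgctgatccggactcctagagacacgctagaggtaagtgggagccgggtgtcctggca
Both strands were searched, and none of the matches overlapped another. The *Mmp3* window held TGAGTCA with its first base 71 bases before the start and TATAAA 32 bases before it, and the *Mmp13* window held TGACTCA 66 bases and TATAAA 47 bases before the start. The *Timp1* window held neither, and had TGAGTAA 108 bases before the start. *Mmp3* also had TGAGTAA, 144 bases before the start. Among all 33469 promoter windows of the table, 4.63% held TGACTCA or TGAGTCA, 14.2% held TATAAA, 0.762% held both, and 2.9% held TGAGTAA (each on either strand). A match in letters is a description of the window and says nothing about whether a factor binds there.

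The libraries held between 18373289 and 22817858 counted reads, and the 5 genes were among the 15543 with enough reads to be tested. Levels are given in CPM, counts relative to the size of the library, scaled by edgeR's TMM factors. Lengths of the transcripts were not used, so levels are compared between groups and not between genes. In these bulk cultures, fewer cells that make a transcript and less of it per cell cannot be told apart. The labelled cell type was not checked against marker genes, and the other genes of the pathway were not counted, because their identifiers are not paired with symbols. Scaling by library totals alone moved the median log2 fold change of all genes to -0.197 in Adi versus Control and to -0.150 in Adi versus Ost, against -0.007 and 0.003 with TMM. It also set the share of higher genes among those called at 25.6% in Adi versus Control, 81.8% in Adi_ASA versus Adi and 68.6% for the difference of the aspirin effects, against 50.1%, 57.3% and 42.3% with TMM.

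Most of these genes differed between the media and Control. In Ost, *Mmp2*, *Mmp3*, *Mmp13* and *Timp1* were lower than in Control at an adjusted p under 0.05 in the quasi-likelihood test of edgeR, where 68.9% of all genes tested passed in either direction and 34.8% were lower. In Adi, *Mmp3*, *Mmp13* and *Timp1* were lower and *Mmp9* was higher, where 48.9% of all genes passed, 24.4% lower and 24.5% higher. *Mmp2* did not pass in Adi. *Mmp9* was also lower in Ost, but it passed the filter on low counts only through the other groups, so its osteogenic values are given without a test and apart from these counts. The libraries of the groups did not overlap for those 4 genes in Ost versus Control and for the 4 that passed in Adi versus Control, which held for 72.6% and 57.5% of all genes. As a description that includes *Mmp9*, the median log2 fold change of the 5 genes was -2.21 in Ost and -0.50 in Adi, against -0.0229 and -0.00736 for all genes tested. The all-gene median lies near 0 by the TMM scaling itself. Regardless of direction, the median size of the log2 fold change of all genes was 0.545 in Ost and 0.308 in Adi. Both comparisons use the same Control libraries.

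**Figure D1:**
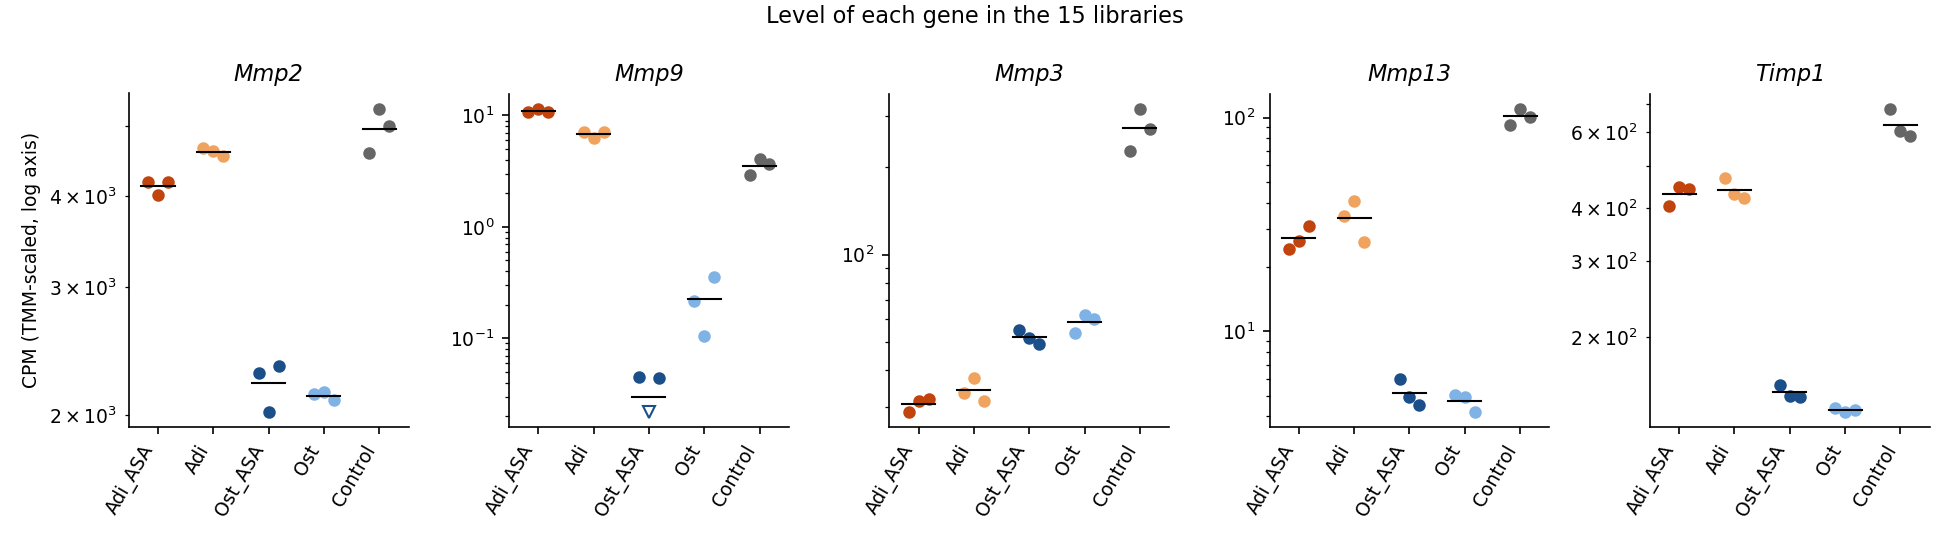
CPM (TMM-scaled, log axis with its own range in each panel) of each gene in every library, by group, with points for libraries and a line at the mean of 3. The open triangle marks the Ost_ASA library with 0 *Mmp9* reads, placed at the bottom of a log axis that has no 0. By mean, Control is highest for all genes but *Mmp9*, which is highest in Adi_ASA, and the osteogenic groups are lowest for all but *Mmp3*.

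*Mmp2* was the member with the most reads, taking 0.208% to 0.555% of all counted reads of a library. Its levels were 4189, 4018 and 4189 CPM in Adi_ASA and 4659, 4620.0 and 4539.7 CPM in Adi. They were 2283, 2021 and 2338 CPM in Ost_ASA, 2137, 2149 and 2096 CPM in Ost, and 4591, 5283 and 5008 CPM in Control. All 6 osteogenic libraries thus lay below every other library, while Adi and Control overlapped. The gelatinase transcript was 2.33-fold lower in Ost than in Control (log2 fold change -1.22, SE 0.07, 95% interval -1.36 to -1.08, edgeR adjusted p = 4.35e-13). In Adi its log2 difference from Control was -0.11 (95% interval -0.24 to 0.03, edgeR adjusted p = 0.184). That difference was -0.30 with library totals alone (edgeR adjusted p = 0.00048), a scaling that moved all genes as given above. Adi was 2.17-fold higher than Ost (log2 fold change 1.11, SE 0.07, edgeR adjusted p = 2.46e-12).

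*Mmp9*, the other gelatinase, had the fewest reads and the widest range. Levels of 10.7, 11.5 and 10.8 CPM were found in Adi_ASA and of 7.03, 6.32 and 7.09 CPM in Adi. They were 0.0446, 0 and 0.0438 CPM in Ost_ASA, 0.215, 0.105 and 0.355 CPM in Ost, and 2.9, 4.06 and 3.63 CPM in Control. The groups fell into the order Adi_ASA, Adi, Control, Ost, Ost_ASA with no overlap between any neighbours. Only the adipogenic and Control libraries were above the 0.485 CPM that the filter on low counts asks for, so *Mmp9* entered the fit because of its level there. The osteogenic values rest on single reads: 1, 0 and 1 in Ost_ASA and 5, 2 and 8 in Ost.

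*Mmp9* differed from Control in opposite directions in the 2 media. It was 1.93-fold higher in Adi than in Control (log2 fold change 0.95, SE 0.19, 95% interval 0.55 to 1.35, edgeR adjusted p = 0.000325). In Ost, 15 reads stood against 233 in Control, a ratio of 0.066 scaled for library size, with an exact 95% interval for counting error of 0.0363 to 0.111. Between the media, 373 reads in Adi stood against 15 in Ost, a ratio of 29.5 (counting interval 17.6 to 53.2). These 2 ratios are a description without a test. No other member was higher in Adi than in Control.

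With aspirin, *Mmp9* was higher in adipogenic and lower in osteogenic medium. The 3 Adi_ASA libraries held 193, 233 and 210 reads and the 3 Adi libraries 125, 115 and 133, a fold of 1.62 (log2 difference 0.69). In osteogenic medium, 2 reads in Ost_ASA stood against 15 in Ost, a ratio of 0.13 with an exact 95% interval for counting error of 0.0144 to 0.558. Neither pair of groups overlapped, which held for 23.5% of all genes in Adi_ASA versus Adi and 18.5% in Ost_ASA versus Ost. With aspirin in both media, 636 reads in Adi_ASA stood against 2 in Ost_ASA, a ratio of 368 (counting interval 102 to 3050).

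*Mmp3*, the stromelysin, was the only one of the 5 that was lower in Adi than in Ost. Levels were 28.8, 31.4 and 31.8 CPM in Adi_ASA and 33.5, 37.7 and 31.3 CPM in Adi. They were 55.2, 51.8 and 49.1 CPM in Ost_ASA, 53.7, 62.2 and 59.9 CPM in Ost, and 228, 318 and 270.0 CPM in Control. All adipogenic libraries lay below all osteogenic ones, and these lay below all Control libraries. *Mmp3* was 7.95-fold lower in Adi than in Control (log2 fold change -2.99, SE 0.11, edgeR adjusted p = 5.03e-12), and 2.08% of all genes tested differed by more in either direction. It was 4.64-fold lower in Ost than in Control (log2 fold change -2.21, SE 0.10, edgeR adjusted p = 1.69e-11). Adi was 1.71-fold lower than Ost (log2 fold change -0.78, SE 0.11, 95% interval -1.01 to -0.55, edgeR adjusted p = 9.56e-06), and Adi_ASA was 1.7-fold lower than Ost_ASA (log2 fold change -0.76, SE 0.11, edgeR adjusted p = 1.27e-05).

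*Mmp13*, the collagenase, had the reverse order of the media from that of *Mmp3*. It stood at 24.3, 26.4 and 31.2 CPM in Adi_ASA and at 34.7, 40.7 and 26.2 CPM in Adi. Levels were 6.02, 4.93 and 4.55 CPM in Ost_ASA, 5.03, 4.92 and 4.21 CPM in Ost, and 92.8, 110.1 and 101 CPM in Control. Control lay above all adipogenic libraries and these above all osteogenic ones, with overlap between the groups with and without aspirin in each medium. *Mmp13* was 21.4-fold lower in Ost than in Control (log2 fold change -4.42, SE 0.17, 95% interval -4.79 to -4.05, edgeR adjusted p = 1.89e-11), and 4.16% of all genes tested differed by more. In Adi it was 2.99-fold lower than in Control (log2 fold change -1.58, SE 0.14, edgeR adjusted p = 6.77e-07). Adi was thus 7.17-fold higher than Ost (log2 fold change 2.84, SE 0.17, edgeR adjusted p = 3.01e-09).

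*Timp1*, the inhibitor, was also lower in both media than in Control. Its levels were 405, 448 and 443 CPM in Adi_ASA and 469, 431 and 422 CPM in Adi. They were 155, 146 and 145 CPM in Ost_ASA, 137, 134 and 135 CPM in Ost, and 681, 604 and 589 CPM in Control. Only Adi and Adi_ASA overlapped. *Timp1* was 4.61-fold lower in Ost than in Control (log2 fold change -2.21, SE 0.06, 95% interval -2.34 to -2.07, edgeR adjusted p = 1.14e-17) and 1.42-fold lower in Adi than in Control (log2 fold change -0.50, SE 0.06, 95% interval -0.63 to -0.37, edgeR adjusted p = 7.79e-07). Adi was 3.26-fold higher than Ost (log2 fold change 1.70, SE 0.06, edgeR adjusted p = 9.49e-16).

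**Figure D2:**
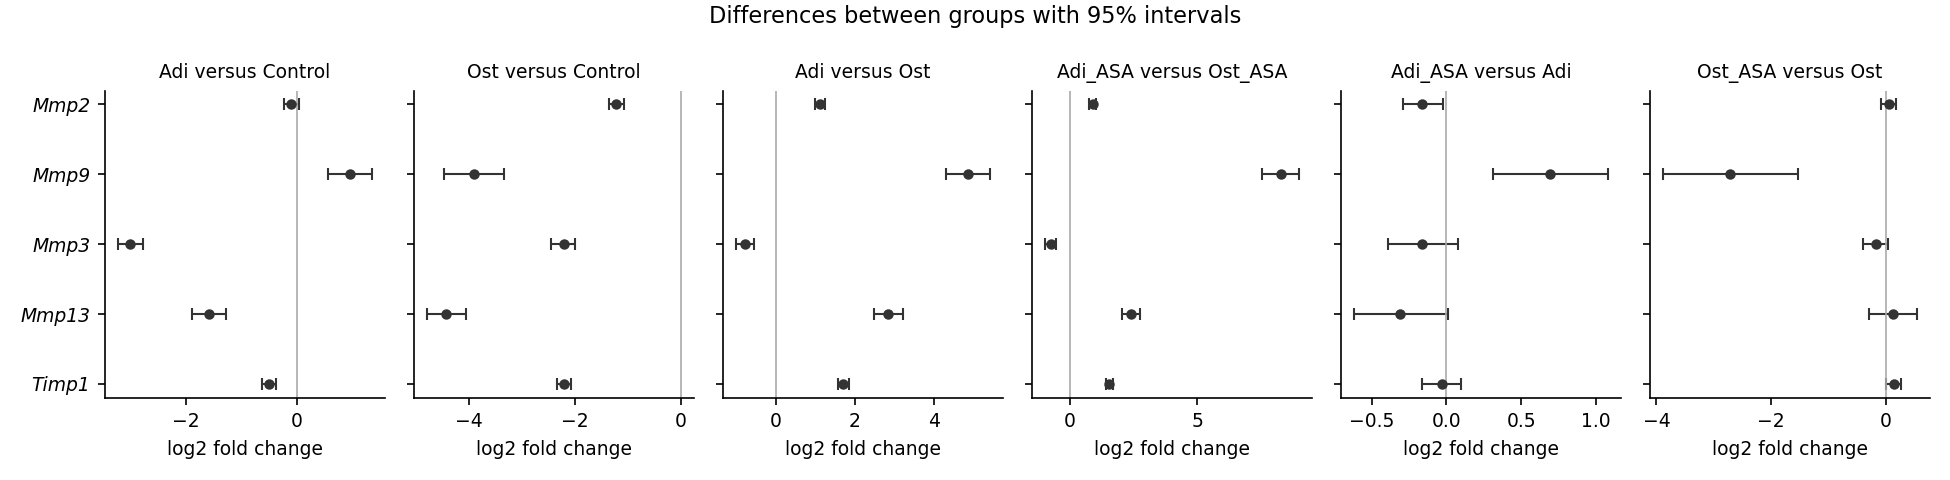
Log2 fold changes (x axis, with its own range in each panel) of the 5 genes in 6 comparisons, first-named group over second, as points with 95% intervals from the edgeR fit. For *Mmp9*, the intervals in the aspirin comparisons and in those with an osteogenic group are not read as a test. Between the media, with or without aspirin, *Mmp3* is on the other side of 0 from the other genes, and in the aspirin comparisons *Mmp9* lies farthest from 0.

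Between the media, *Mmp2*, *Mmp3*, *Mmp13* and *Timp1* passed the test both without aspirin (Adi versus Ost, where 66.5% of all genes passed) and with it (Adi_ASA versus Ost_ASA, 65.7%). In each, *Mmp2*, *Mmp13* and *Timp1* were higher in adipogenic medium and *Mmp3* was lower, as the plot of log2 fold changes shows. Of all genes, 33% were higher and 33.5% lower in Adi than in Ost, and 32.9% higher and 32.8% lower in Adi_ASA than in Ost_ASA. The libraries of the groups did not overlap for these 4 genes in either comparison, against 69.8% of all genes in Adi versus Ost and 69.1% in Adi_ASA versus Ost_ASA. With aspirin in both media, the log2 fold changes of Adi_ASA over Ost_ASA were 0.90 (SE 0.07) for *Mmp2*, 2.40 (SE 0.17) for *Mmp13* and 1.54 (SE 0.06) for *Timp1*. Without aspirin, those of Adi over Ost were 1.11, 2.84 and 1.70.

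With aspirin, the log2 differences of the genes other than *Mmp9* lay between -0.31 and 0.14 in the 2 media. Of these 4 genes, 0 passed the edgeR test in adipogenic medium, where 4.34% of all genes did, and 0 in osteogenic medium, where 3.63% did. At an unadjusted p under 0.05 there was 1 in each medium in edgeR, *Mmp2* in adipogenic and *Timp1* in osteogenic medium. DESeq2 also called 0 of the 4 in either medium, with 2 at an unadjusted p under 0.05 in adipogenic and 1 in osteogenic medium. As a description without a test, the log2 difference of *Mmp9* with single libraries left out was 0.64 to 0.72 in Adi_ASA over Adi. In Ost_ASA over Ost it was -3.05 to -2.23, which rests on libraries with no more than 8 *Mmp9* reads each.

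For these 4 genes the intervals give the range of differences that the libraries allow. *Mmp2* was lower in all 3 Adi_ASA libraries than in any Adi library, but the log2 difference of -0.16 (95% interval -0.29 to -0.02) did not pass the test over all genes (edgeR adjusted p = 0.209). It passed with a fit of only the groups compared (edgeR adjusted p = 0.0467). *Timp1* was likewise higher in all 3 Ost_ASA libraries than in any Ost library, with a log2 difference of 0.14 (95% interval 0.00 to 0.27, edgeR adjusted p = 0.312). Libraries separated in this way, in either direction, for 23.5% of all genes in Adi_ASA versus Adi and 18.5% in Ost_ASA versus Ost. In adipogenic medium, *Timp1* had a log2 difference of -0.03 (95% interval -0.16 to 0.10, edgeR adjusted p = 0.875), which was 0.03 with library totals alone.

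*Mmp3* was at -0.16 (95% interval -0.39 to 0.08, edgeR adjusted p = 0.529) in Adi_ASA over Adi and at -0.17 (95% interval -0.39 to 0.05, adjusted p = 0.497) in Ost_ASA over Ost. *Mmp13* was at -0.31 (95% interval -0.62 to 0.01, edgeR adjusted p = 0.304) in Adi_ASA over Adi. Without Adi replicate 3, the lowest *Mmp13* library of its group, this difference was -0.46 and passed (edgeR adjusted p = 0.0359). In Ost_ASA over Ost, *Mmp13* was at 0.13 (95% interval -0.28 to 0.55, edgeR adjusted p = 0.832). *Mmp2* in osteogenic medium was at 0.06 (95% interval -0.08 to 0.19, edgeR adjusted p = 0.767).

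**Figure D3:**
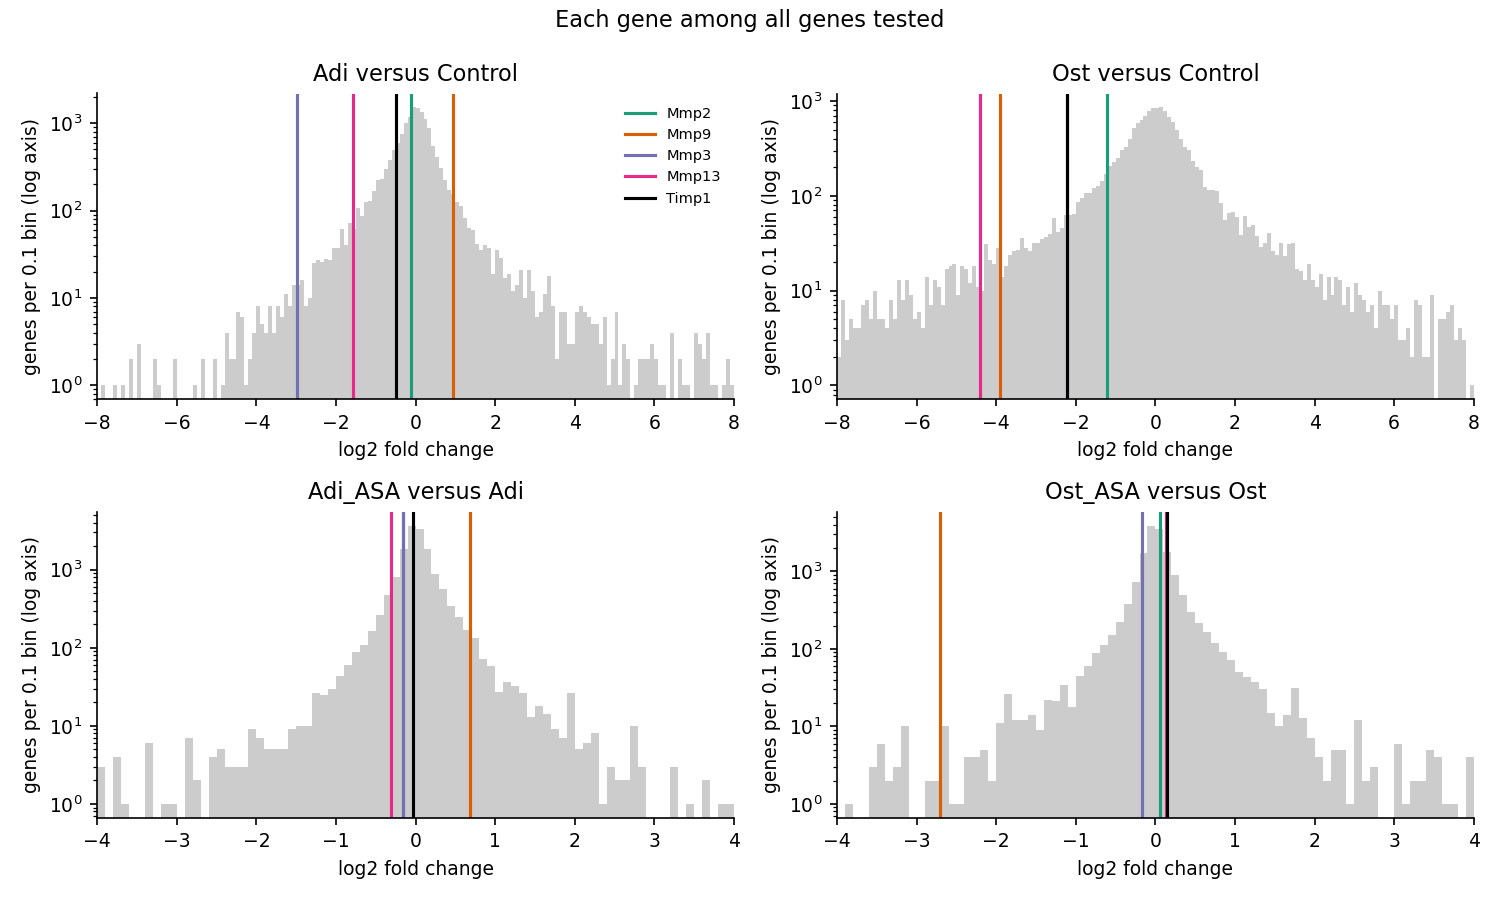
Histograms (grey, genes per bin of 0.1, log axis) of the log2 fold changes of the 15543 genes tested in 4 comparisons, with a vertical line for each of the 5 genes. The axes end at 8 on either side for the comparisons with Control and at 4 for those of aspirin, and nearly equal values hide each other (*Mmp3* under *Timp1* in Ost versus Control, *Mmp2* under *Mmp3* in Adi_ASA versus Adi, *Mmp13* under *Timp1* in Ost_ASA versus Ost).

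Whether the effect of aspirin differed between the media was measured as its effect in adipogenic minus that in osteogenic medium, and 2.83% of all genes passed the edgeR test of this difference. *Mmp9* was at 3.41 on the log2 scale, given as a description without a test. Of the other 4 genes, 0 passed in edgeR or DESeq2, with 1 at an unadjusted p under 0.05 in edgeR and 2 in DESeq2. *Mmp2* was at -0.21 (95% interval -0.41 to -0.02, edgeR adjusted p = 0.289), *Mmp13* at -0.44 (95% interval -0.96 to 0.08, adjusted p = 0.47), *Timp1* at -0.16 (95% interval -0.35 to 0.02, adjusted p = 0.442) and *Mmp3* at 0.01 (95% interval -0.31 to 0.34, adjusted p = 0.988).

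The reads of each protease were also set against those of *Timp1* in the same library, which no library scaling can change. The log2 ratio of *Mmp2* to *Timp1* was 3.37, 3.16 and 3.24 in Adi_ASA and 3.31, 3.42 and 3.43 in Adi. It was 3.88, 3.79 and 4.01 in Ost_ASA, 3.97 ± 0.02 (SD, n = 3) in Ost, and 2.75, 3.13 and 3.09 in Control. The log2 ratio was 0.98 higher in Ost and 0.40 higher in Adi than in Control. For *Mmp3*, the mean log2 ratio to *Timp1* was -3.82 ± 0.02 in Adi_ASA, -3.69 ± 0.15 in Adi, -1.52 ± 0.04 in Ost_ASA, -1.21 ± 0.12 in Ost and -1.21 ± 0.33 in Control (SD, n = 3). Ost and Control overlapped, and both adipogenic groups lay below them. Ost_ASA (-1.57 to -1.48) lay below Ost (-1.35 to -1.11) but overlapped Control (-1.58 to -0.93), and Adi_ASA overlapped Adi.

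For *Mmp13*, the mean log2 ratio to *Timp1* was -3.99 ± 0.14 in Adi_ASA, -3.72 ± 0.30 in Adi, -4.85 ± 0.16 in Ost_ASA, -4.84 ± 0.13 in Ost and -2.63 ± 0.22 in Control (SD, n = 3). Both media thus had a lower mean ratio than Control. For *Mmp9*, it was -5.29 ± 0.06 in Adi_ASA, -6.01 ± 0.10 in Adi, -11.63 ± 0.85 in Ost_ASA, -9.22 ± 0.76 in Ost and -7.47 ± 0.35 in Control, where 0.5 reads were added to each count. With 5 reads added, the osteogenic values were -9.20 in Ost_ASA and -8.24 in Ost. The ratios were not tested.

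**Figure D4:**
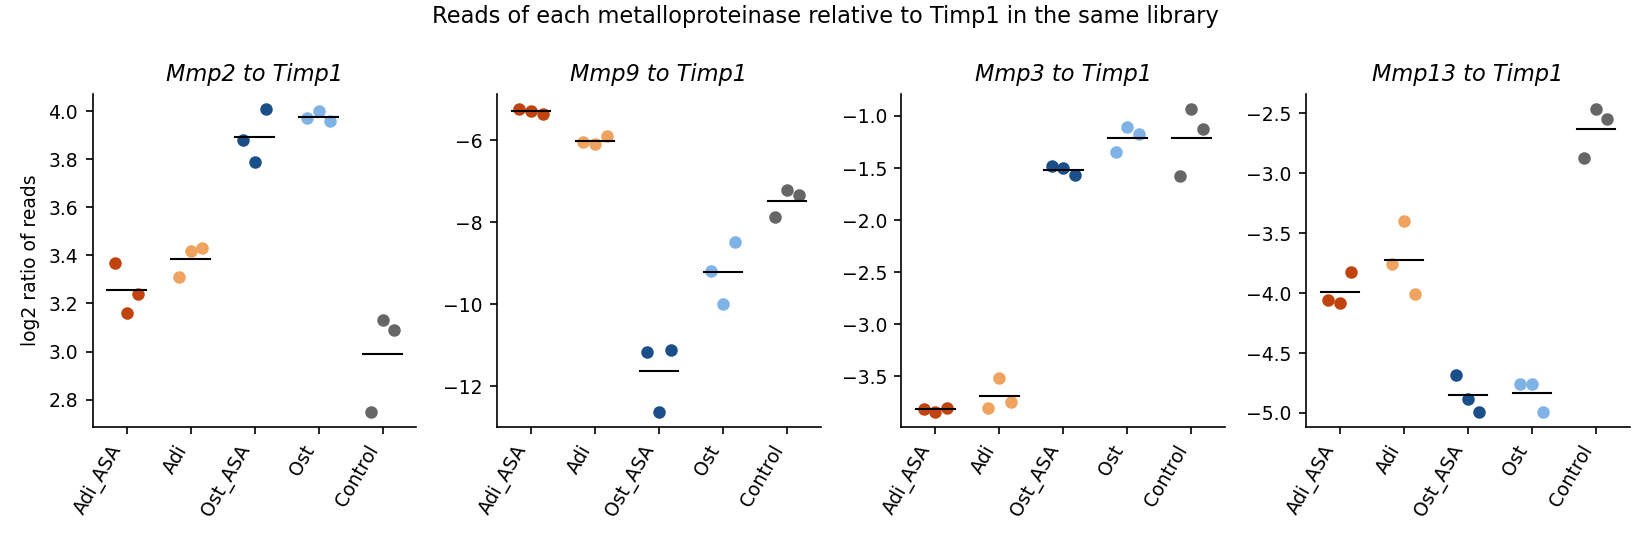
Log2 ratio of the reads of each metalloproteinase to those of *Timp1* in the same library (y axis, own range in each panel, 0.5 reads added to each count), with points for libraries and a line at the mean of 3. The *Mmp2* ratio is lowest in Control (2.75 to 3.13), the *Mmp13* ratio highest there (-2.87 to -2.46), and the *Mmp3* ratio is lowest in the adipogenic groups.

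The error behind these values differed between the genes. The biological coefficient of variation that edgeR estimated was 6.06% for *Mmp2*, 6.12% for *Timp1*, 9.01% for *Mmp3*, 12.6% for *Mmp13* and 16.6% for *Mmp9*, with a median of 10.6% over all genes tested. A lower coefficient than that of *Mmp2* was estimated for 12.8% of genes and a lower one than that of *Mmp9* for 69.1%. Each gene has 1 such coefficient for all groups, which does not give the error of *Mmp9* in osteogenic medium. The SD of its CPM was 55.8% of the mean in Ost and 86.6% in Ost_ASA. It was 3.6% in Adi_ASA, 6.29% in Adi and 16.7% in Control.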

How the data were processed

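The authors deposited raw read counts, not normalised, in a single table of 34480 rows and 15 columns, each column matched to a sample by its title. The submitters' processing notes name the build Rnor_6.0 and the tools HISAT2 2.0.4, HTSeq 0.9.1 and DESeq 1.18.0. Settings, strandedness and the handling of reads shared between similar genes are not stated there, so values of close paralogs are uncertain. The test was that of edgeR 4.0.16 under R 4.3.3 (filterByExpr, TMM, 1 robust quasi-likelihood model of all 15 libraries, 7 contrasts, Benjamini-Hochberg adjustment over 15543 genes, threshold 0.05). The standard error is the log2 fold change divided by the square root of F, and 95% intervals use the test's degrees of freedom. Counting intervals are exact binomial and cover counting error only. Alternatives were RLE, upper-quartile or no scaling factors (the last chosen after seeing the data), DESeq2 1.42.0, other filters, other sets of libraries and a replicate block. Counts of replicates differed by more than sampling noise in every pair (chi-square divided by its degrees of freedom, 5.41 to 13.5), so none was taken as a library deposited again; this does not show separate animals or cultures. All 5 genes are named in every comparison, and for each the Ensembl identifier with the most alike pattern. The members and lists were chosen with earlier results of these data known. The reference table (GRCr8) held 0 Ensembl identifiers, so the lists of related genes and markers could not be matched. Promoter sequences are from RefSeq.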

Additional observations from a re-analysis of the deposited data

Results flagged for a closer look

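The aspirin effect of *Mmp9* in adipogenic minus that in osteogenic medium was 3.41 in log2 units, given without a test. *Mmp9* was higher in 3 of 3 Adi_ASA libraries than in any Adi library, and lower in 3 of 3 Ost_ASA libraries than in any Ost library. Groups also did not overlap for 23.5% of all genes in Adi_ASA versus Adi and 18.5% in Ost_ASA versus Ost. The difference rests on 636 reads in Adi_ASA and 373 in Adi, but on only 2 in Ost_ASA and 15 in Ost. It was 2.94 without Ost replicate 3, which holds 8 of the 15 Ost reads. It was known when the gene was chosen and is a description here. Groups of 3 libraries are too small for a test of single libraries that stand apart.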

How the results depend on the processing

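The calls of *Mmp2*, *Mmp3*, *Mmp13* and *Timp1* in the comparisons between media and with Control, and of *Mmp9* in Adi versus Control, held under all 23 alternatives run, except that *Mmp2* in Adi versus Control passed with library totals alone. The aspirin response of *Mmp9* was known when it was chosen, so calls with aspirin are counted here for the other 4 genes. For Adi_ASA versus Adi the count was 0 (1 at an unadjusted p under 0.05 in edgeR), where 4.34% of all genes passed. It was 1 with only the groups compared in the fit (*Mmp2*). It was 0 to 1 when single libraries were left out, where the 1 without Adi replicate 3 was *Mmp13*. For Ost_ASA versus Ost it was 0, where 3.63% of all genes passed, and it stayed 0 under all 23 alternatives. With only the groups compared, 2 of the 4 had an unadjusted p under 0.05, and *Mmp9* did not pass the filter on low counts. Under DESeq2, 1 of the 4 had an unadjusted p under 0.05. For the difference of the aspirin effects the count was 0 (1 at an unadjusted p under 0.05 in edgeR), where 2.83% of all genes passed. It stayed 0 under all 23 alternatives. Leaving out single libraries gave 284 to 753 genes called in Adi_ASA versus Adi, against 675, 335 to 588 in Ost_ASA versus Ost, against 564, and 288 to 465 for the difference, against 440. Fewer libraries were then fitted.

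The log2 difference of *Timp1* in Adi_ASA versus Adi was 0.03 with library totals alone and -0.06 to 0.02 with single libraries left out, and that of *Mmp3* between the aspirin effects was -0.04 to 0.09. Both are too near 0 for a direction. Scaled by library totals, mean levels of *Mmp2* were 3988 CPM in Adi_ASA, 4278 in Adi and 2197 in Ost, those of *Timp1* 409 in Adi and 139.8 in Ost, and that of *Mmp9* 6.32 in Adi. The log2 ratio of *Mmp9* to *Timp1* was -9.20 in Ost_ASA and -8.24 in Ost with 5 reads added. No pairing by replicate number was seen over all genes: deviations of same-numbered libraries from their group means had correlations of -0.07 to 0.04 over 30 pairs. Such correlations cannot exclude pairing, nor an effect of it on single genes. A fit with the number as a block called 572 genes in Adi_ASA versus Adi and 516 in Ost_ASA versus Ost. It called neither *Mmp2*, *Mmp3*, *Mmp13* nor *Timp1* in either comparison. Depth limits *Mmp9* in osteogenic medium, where no library held more than 8 reads.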

Other observations

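For each of the 5 genes, the other genes tested were ranked by the Pearson correlation of log2 CPM over the 15 libraries, which share their groups, so that a high value mostly says that the group means are alike. *Timp1* was most like ENSRNOG00000012280 (r = 0.998), which had 147 CPM in Adi_ASA, 145 in Adi, 5.92 in Ost_ASA, 4.99 in Ost and 430 in Control. *Mmp13* was most like ENSRNOG00000000239 (r = 0.996), with 177 CPM in Adi_ASA, 216 in Adi, 25.5 in Ost_ASA, 25.2 in Ost and 644 in Control. *Mmp2* was most like ENSRNOG00000003649 (r = 0.995), with 90.9 CPM in Adi_ASA, 94.7 in Adi, 45 in Ost_ASA, 45.5 in Ost and 105 in Control. *Mmp9* was most like ENSRNOG00000010415 (r = 0.991), with 18 CPM in Adi_ASA, 17.5 in Adi, 9.01 in Ost_ASA, 10.1 in Ost and 15.8 in Control. That gene had a far narrower range of levels than *Mmp9*, so the high r does not mean similar fold changes. *Mmp3* was most like ENSRNOG00000032832 (r = 0.994), with 5.38 CPM in Adi_ASA, 5.18 in Adi, 8.32 in Ost_ASA, 8.94 in Ost and 41.8 in Control. A correlation of at least 0.95 was reached by 973 of 15538 genes with *Timp1*, 898 with *Mmp2*, 625 with *Mmp13* and 426 with *Mmp9*, but by 24 with *Mmp3*. The table pairs these identifiers with no symbol.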
